A study of Mus musculus with 38 samples.

Results

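The genes described here are 9 mouse genes that mark neutrophils and immature myeloid cells: S100a8, S100a9, Csf3r, Cxcr2, Retnlg, Ly6g, Trem1, Clec4d and Clec4e. They were chosen by name, 9 of the 55487 genes in the tables, and 7 of them had enough reads in the tumors to be tested. Bulk RNA was sequenced from omental tumors grown from 60577 cells in FVB mice or from HGS2 cells in C57BL/6J mice, 2 syngeneic models of high-grade serous ovarian cancer (HGSOC) made by injecting a cultured line into the peritoneum of female wild-type mice aged 8 to 9 weeks. Mice received 3 weekly intraperitoneal doses of carboplatin (20 mg/kg) with paclitaxel (10 mg/kg), named treated here, or the vehicle, named control, starting 21 days (60577) or 49 days (HGS2) after injection. Tumors were taken 1 day (TP1), 7 days (TP2) or 21 days (TP3) after the last dose. The 60577 model had 3 control and 3 treated tumors at TP1, 3 control and 4 treated tumors at TP2 and 4 treated tumors at TP3. The HGS2 model had 3 and 3 at TP1, 4 and 3 at TP2 and 4 treated tumors at TP3. No TP3 controls were among the samples, so a comparison of TP3 treated with TP2 control tumors cannot tell treatment and time apart. Cultured 60577 and HGS2 cells (2 libraries each), which hold no host cells, served as a reference. Each model rests on 1 cell line in 1 mouse strain, so differences between models cannot be told apart from those between strains.

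Library totals ran from 17839641 to 49299421 counts in the tumors and reached at least 31633099 in the cell lines. HGS2 TP3 treated replicate 1 stood apart: it had the lowest total and 0 counts of S100a8, S100a9, Retnlg, Ly6g, Trem1 and Clec4d, beside 439 counts of Csf3r, 31 of Cxcr2 and 37 of Clec4e. It is also absent from the study's own result tables and was left out of the tests, which used 33 of the 34 tumors. 7SL RNA, an abundant non-coding RNA, took 1.93% to 26.5% of counts in the 33 tumors, and 8 pancreas acinar genes together reached 129000 CPM (counts-per-million, scaled by library) in HGS2 TP2 control replicate 2, 70100 CPM in HGS2 TP1 control replicate 3 and 68400 CPM in HGS2 TP3 treated replicate 2. The study shows each tumor of a group as that of an individual mouse, so the spread within a group is that between mice. In bulk RNA, fewer cells of a type and less RNA per cell cannot be told apart.

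Neutrophils are short-lived granulocytes made in the bone marrow under the growth factor G-CSF and drawn out of it, and into tissues, by chemokines. S100A8 and S100A9 pair to form calprotectin, an abundant cytosolic protein of neutrophils and a ligand of TLR4 and RAGE. CSF3R is the G-CSF receptor, and CXCR2 is the receptor of the neutrophil-attracting CXC chemokines. Ly6G is the surface antigen by which mouse neutrophils are sorted, and Retnlg encodes a secreted resistin-like protein of mouse neutrophils. TREM1 signals through the adaptor DAP12 (Tyrobp) to amplify inflammatory responses, while Clec4d (MCL) and Clec4e (Mincle) encode C-type lectins that sense microbial glycolipids and, for Mincle, a protein released by dead cells, and signal through the Fc receptor gamma chain (Fcer1g), Syk and Card9. Monocytes and macrophages also express several of these genes, in particular Csf3r, Clec4d and Clec4e, and squamous epithelia express S100a8 and S100a9.

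S100a8 (ENSMUSG00000056054, chr3:90668978-90670035, plus strand of GRCm38) and S100a9 (ENSMUSG00000056071, chr3:90692632-90695721, minus strand) lie 22596 bases apart. Clec4d (ENSMUSG00000030144, chr6:123262111-123275265, plus strand) and Clec4e (ENSMUSG00000030142, chr6:123281789-123289870, minus strand) are 6523 bases apart. The other genes stand alone: Csf3r on chromosome 4, Cxcr2 on chromosome 1, Retnlg on chromosome 16, Ly6g on chromosome 15 and Trem1 on chromosome 17, where it overlaps AC241601.2 on the other strand. All 9 are protein-coding.

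The promoters of both neighboring pairs are shown because all 4 genes were called higher at TP1, while the S100 pair but not the Clec4 pair was called lower at TP2. They are the RefSeq bases (GRCm38.p6) upstream of the annotated gene, read 5′ to 3′ on the gene's own strand. Capitals mark the letters GAGGAA (or TTCCTC, the other strand), the core bound by the myeloid factor PU.1 and its ETS relatives, and TTGCNNAA on either strand, a core of the granulocyte factors of the C/EBP family. The S100a8 stretch is chr3:90668821-90668977, the S100a9 stretch chr3:90695722-90695971, the Clec4d stretch chr6:123261857-123262106 and the Clec4e stretch chr6:123289872-123290121.
S100a8: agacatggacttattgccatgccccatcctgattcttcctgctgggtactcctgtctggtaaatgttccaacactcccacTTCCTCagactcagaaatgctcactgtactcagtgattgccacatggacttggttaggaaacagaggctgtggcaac
S100a9: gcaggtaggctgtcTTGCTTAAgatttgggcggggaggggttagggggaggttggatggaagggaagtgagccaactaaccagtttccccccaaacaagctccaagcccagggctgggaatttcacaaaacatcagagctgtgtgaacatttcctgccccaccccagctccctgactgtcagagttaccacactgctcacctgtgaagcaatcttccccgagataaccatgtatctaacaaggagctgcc
Clec4d: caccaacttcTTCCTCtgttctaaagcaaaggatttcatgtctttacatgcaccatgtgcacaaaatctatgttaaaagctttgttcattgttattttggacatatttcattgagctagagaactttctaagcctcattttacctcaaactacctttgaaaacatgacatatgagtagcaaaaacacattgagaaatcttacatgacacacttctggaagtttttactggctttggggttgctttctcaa
Clec4e: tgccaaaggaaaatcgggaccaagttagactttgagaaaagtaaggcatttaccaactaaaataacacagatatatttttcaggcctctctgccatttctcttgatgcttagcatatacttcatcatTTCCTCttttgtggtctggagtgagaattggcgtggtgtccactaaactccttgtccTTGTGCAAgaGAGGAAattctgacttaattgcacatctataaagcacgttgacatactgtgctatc

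In windows of 300 bases (250 before to 50 after each RefSeq start), GAGGAA on either strand was found in 7 of the 9 genes, beside 28.3% of all 32851 windows. TTGCNNAA was found in 4 of 9 (S100a9, Retnlg, Ly6g and Clec4e), beside 10.8% of windows. The NF-kB core GGG, any 5 bases and then CC was found in 3 of 9, beside 50.8%, and TGANTCA, the AP-1 core, in 0 of 9, beside 7.81%. Ly6g has 2 such windows, counted as 1 gene, in which an NF-kB match overlaps a GAGGAA match.

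In control tumors these were genes of low to moderate level. Levels are given as CPM after trimmed-mean scaling of library sizes, and per kilobase of exon where genes are compared with each other. In the 6 60577 control tumors the median level per kilobase was highest for S100a9 (4.24 CPM), Csf3r (4) and S100a8 (3.44), followed by Trem1 (1.78), Clec4d (1.38), Cxcr2 (0.741), Clec4e (0.514) and Retnlg (0.343). In the 7 HGS2 control tumors Csf3r led (5.15 CPM per kilobase), followed by S100a8 (2.47), S100a9 (2.19), Clec4d (1.56), Retnlg (0.703), Clec4e (0.435), Cxcr2 (0.411) and Trem1 (0.35). In each order the ranges of neighboring genes overlapped. Ly6g had a median of 0 in both models and 0 counts in 24 of the 34 tumors, so the defining surface gene of mouse neutrophils was at or near the detection limit throughout. The 7 genes tested each reached 1 CPM in 9 to 13 of the 13 control tumors, while Retnlg and Ly6g reached it in 0.

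The cultured lines held almost none of these transcripts. In the 60577 line S100a8 had 2 and 4 counts and Cxcr2 7 and 2, and in the HGS2 line S100a8 had 0 and Cxcr2 1 and 5 counts. All other members had 0 counts in the 4 cell line libraries, and none could be tested between the lines, where 15.9% of 13742 genes tested differed.

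**Figure D1:**
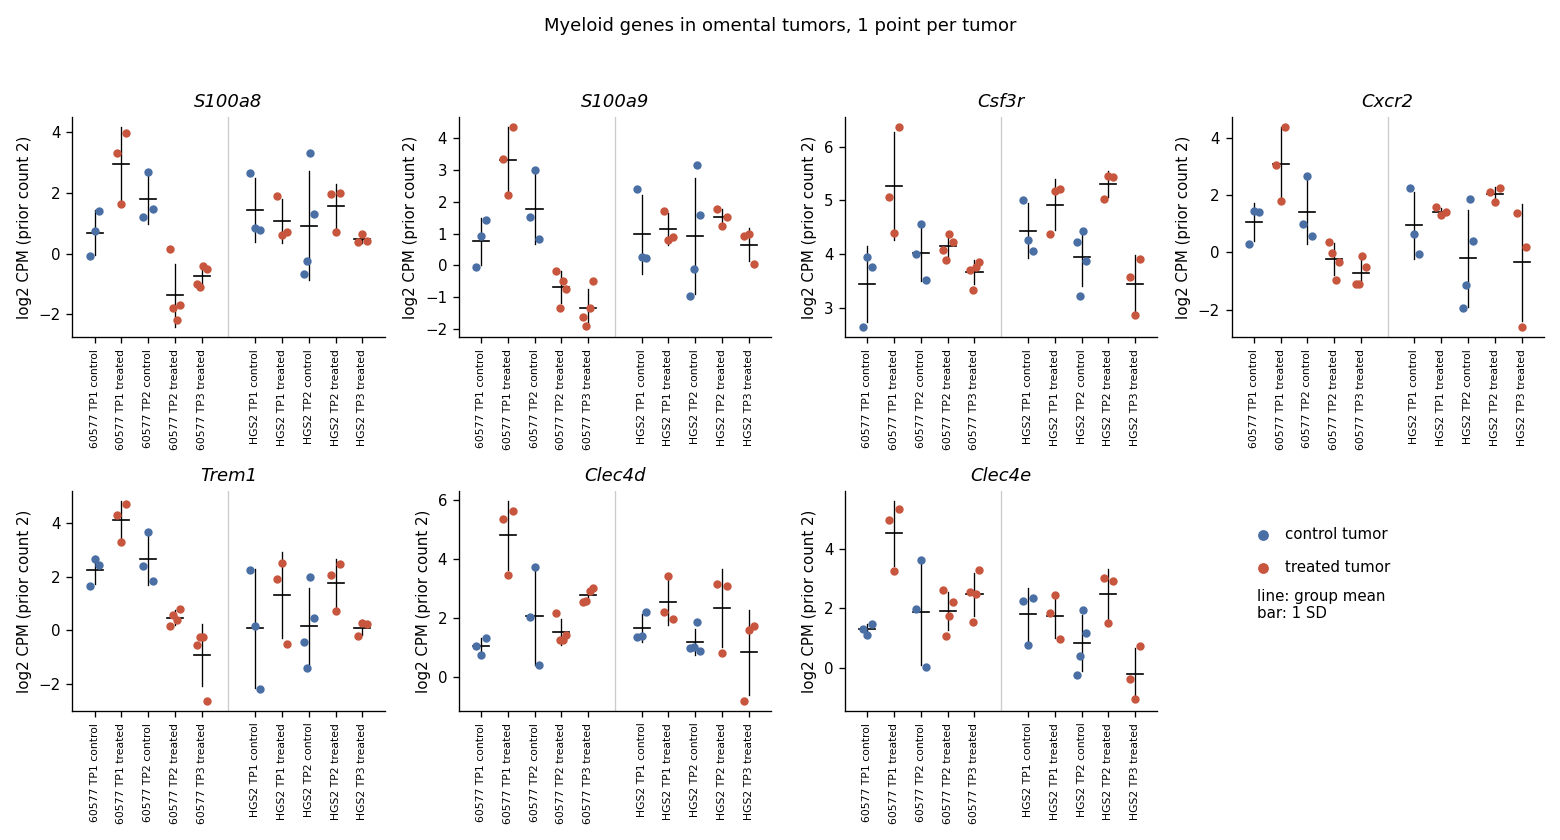
Level of each of the 7 tested genes in every tumor used in the tests (y axis, log2 CPM with a prior count of 2), with groups along the x axis and 1 point per tumor. In 60577 tumors the TP1 treated points lie above all TP1 control points for every gene, and the TP2 treated points lie below all TP1 treated points (line, group mean; bar, 1 SD; blue, control; red, treated).

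At TP1 in 60577 tumors, all 7 tested genes were higher 1 day after the last dose than in controls. Genes are called here when the adjusted p was below 0.05 and the log2 fold change (log2FC) above 1 in size, in the quasi-likelihood test of edgeR, adjusted by the Benjamini-Hochberg method over 16241 genes. The 7 of 7 stand beside 9.65% of all genes called higher by the same rule, and their median log2FC was 2.5, beside 0 for all genes. In none of the 7 did treated and control tumors overlap, which held in the same direction for 26% of all genes.

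The calprotectin genes rose 5.65-fold (S100a8) and 6.54-fold (S100a9). S100a8 measured 0.868, 1.62 and 2.55 CPM in the 3 control tumors and 9.87, 3.01 and 15.5 CPM in the 3 treated tumors, a log2FC of 2.5 (SE 0.66; edgeR adjusted p = 0.00916). S100a9 measured 0.903, 1.81 and 2.61 CPM in controls and 10.1, 4.61 and 20.1 CPM after treatment (log2FC 2.71, SE 0.62; edgeR adjusted p = 0.00405). Treated replicate 3 was highest and treated replicate 2 lowest for both, and the same tumors were highest and lowest for all 7 genes.

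The 2 receptor genes of neutrophil production and recruitment rose with them. Csf3r measured 6.18, 15.3 and 13.6 CPM in controls and 33.3, 20.9 and 82.4 CPM in treated tumors (log2FC 1.97, SE 0.43; edgeR adjusted p = 0.00295). Cxcr2 measured 1.15, 2.68 and 2.58 CPM in controls and 8.21, 3.4 and 21 CPM in treated tumors (log2FC 2.35, SE 0.65; edgeR adjusted p = 0.0117). In treated replicate 2 Cxcr2 was barely above the highest control.

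The activating receptors held both the smallest and the steepest of the 7 rises. Trem1 measured 3.09, 6.27 and 5.42 CPM in controls and 19.7, 9.75 and 26.5 CPM in treated tumors (log2FC 1.93, SE 0.54; edgeR adjusted p = 0.0127). Clec4d went from 1.98, 1.62 and 2.42 CPM to 40.3, 10.8 and 48.5 CPM (log2FC 4.05, SE 0.69; edgeR adjusted p = 0.000493), and Clec4e from 2.4, 2.09 and 2.71 CPM to 31.2, 9.61 and 40.2 CPM (log2FC 3.5, SE 0.75; edgeR adjusted p = 0.00263). The lectin controls were close together, and even the lowest treated tumor lay far above them.

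Retnlg was below the limit for testing but its counts went the same way: 0, 4 and 3 in TP1 control tumors and 24, 14 and 39 in TP1 treated tumors. With no filter on low counts it was called higher (log2FC 3.4, SE 0.85; edgeR adjusted p = 0.00937). Ly6g had 4 counts in TP1 treated replicate 3 and was called in no comparison with that setting.

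The size of the TP1 rise leaned on treated replicate 3. Without it the log2FC of Csf3r was 1.22, and Cxcr2 (1.45; edgeR adjusted p = 0.0903) and Trem1 (1.58; edgeR adjusted p = 0.0566) were no longer called. The same 2 calls were lost without TP1 control replicate 1 (edgeR adjusted p = 0.0568 and 0.0618) and in the fit over both models together, which was used for the tests between models (edgeR adjusted p = 0.066 and 0.124). The other 5 genes kept their calls in each of these settings.

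Other gene groups linked to myeloid cells and their neighbors, taken from lists chosen with earlier results of these data known, moved in the same comparison. Lcn2, Mmp8, Hdc, Syk, Clec7a, Plac8, Cd68, Trem2 and Mertk were among those that also passed the filter in the host-free cultured lines. The part of tumor cells in their changes was not tested. Of 8 genes of secondary and tertiary neutrophil granules, 4 could be tested and 3 rose (list median log2FC 2.83): the gelatinase gene Mmp9 (4.7), the collagenase gene Mmp8 (3.57) and the lipocalin gene Lcn2 (1.38). Mmp9 measured 5.14, 13.5 and 15.9 CPM in controls and 315, 40.7 and 536 CPM in treated tumors. Of 10 genes of mature neutrophils, 8 were tested and 7 rose (median 2.57), among them Slfn4 (3.95), the formyl peptide receptor genes Fpr2 (2.91) and Fpr1 (2.68), and G0s2 (2.7). Of 5 precursor granule genes only Prtn3 could be tested (2.34; edgeR adjusted p = 0.102). Elane, which defines promyelocytes, reached at most 0.242 CPM and was 0 in 16 of the 33 tumors, and Ctsg and Ms4a3 were each 0 in 23.

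Of 10 adaptor and partner genes 6 rose and 0 fell (median log2FC 1.43), led by Clec4n, which encodes the related lectin Dectin-2 (2.88), then Syk (1.86), Clec7a (1.71) and Tyrobp (1.54). Of 7 tested genes of immunosuppressive myeloid cells 5 rose (median 1.82): Wfdc17 (2.81), the arginase gene Arg1 (2.3), Cd84 (1.9) and Il1b (1.82) were the steepest.

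Markers of other cells that express some of the members moved too. Of 6 monocyte markers 3 rose (Chil3 2.64, Plac8 2.48 and Itgam 1.83 on the log2 scale), and their summed level was 101 to 166 CPM in TP1 controls and 329 to 415 CPM in TP1 treated tumors. Of 8 macrophage markers 3 rose (Cd68 1.94, Trem2 1.61 and Mertk 1.41), with summed levels of 480 to 799 CPM and 1010 to 1230 CPM. Of 5 tested eosinophil, mast cell and basophil markers 3 rose. The part of these cells in the members' rise was not tested. Of 6 squamous epithelial markers 2 could be tested, 1 fell (Krt14, -2.13), and Krt5 was 0 in all 33 tumors. Krt14 was also expressed in the cultured lines, and the study uses its protein as a stain for cancer cells.

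Tumor and tissue content also differed between these groups. All 5 tested epithelial tumor markers fell (median log2FC -1.92), with summed levels of 1450 to 1660 CPM in TP1 controls and 313 to 583 CPM in TP1 treated tumors. Of fibroblast markers 5 of 6 rose (median 1.29), of adipocyte markers 4 of 5 (5.4), of T and B cell markers 2 of 6 (1.62), of blood markers 1 of 5 (-0.51) and of pancreas acinar markers 0 of 8 (4.06). 7SL RNA took 3.59% to 4.91% of counts in TP1 controls and 7.87% to 15.4% in TP1 treated tumors, with the top value in treated replicate 3. With the 7SL RNA share as a covariate, no member call changed in this comparison. The share did not overlap between these groups, so that fit cannot tell it apart from treatment. The part of tumor content in the members' rise was not tested.

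**Figure D2:**
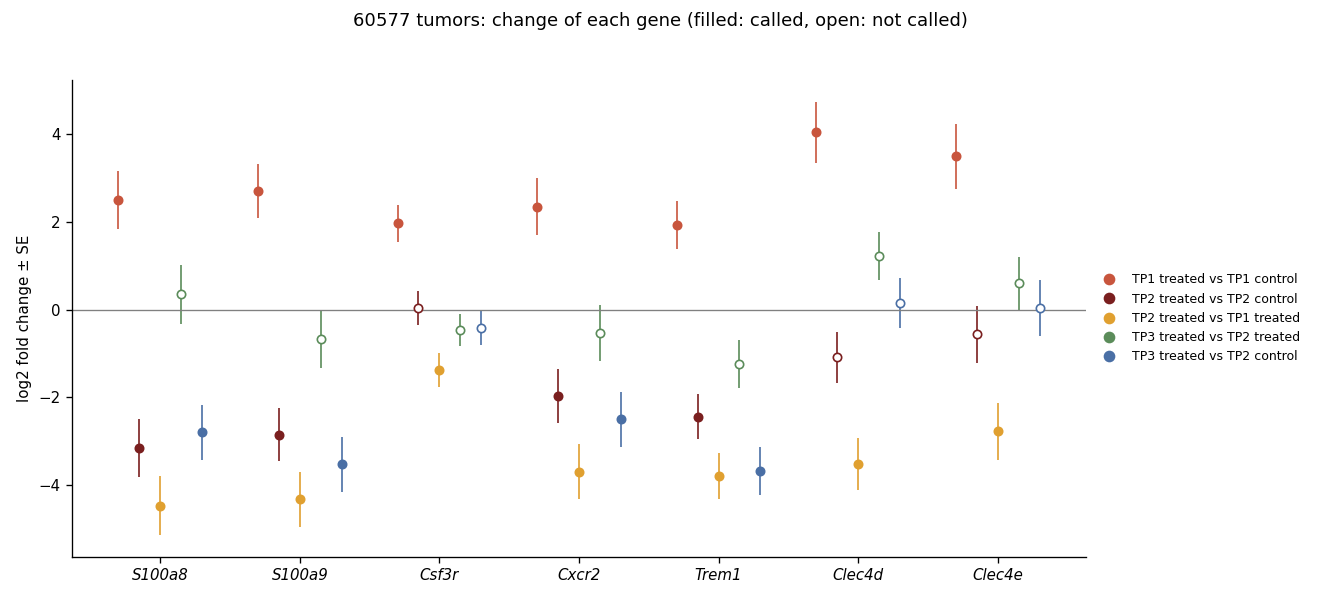
Change of each of the 7 tested genes along the x axis in 5 comparisons of 60577 tumors, told apart by color (y axis, log2 fold change with its standard error, filled points called and open points not called). The 7 TP1 points lie between 1.93 and 4.05, and the 7 points of TP2 treated against TP1 treated tumors lie between -4.47 and -1.37.

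At TP2 the levels in treated 60577 tumors had come down. All 7 tested genes were lower in TP2 treated than in TP1 treated tumors, beside 2.44% of all genes called lower, and their median log2FC was -3.7 against 0.03 for all genes. This comparison shares the TP1 treated tumors with the one above. S100a8 measured 1.04, 0.219, 0.148 and 0.241 CPM in the 4 TP2 treated tumors (log2FC -4.47, SE 0.67; edgeR adjusted p = 0.00247), and S100a9 0.826, 0.329, 0.64 and 0.522 CPM (-4.33, SE 0.62; 0.00215). Trem1 was at 1.04, 1.42, 1.23 and 1.69 CPM (-3.8, SE 0.53; 0.00215), and Cxcr2 at 1.22, 0.913, 0.443 and 0.723 CPM (-3.7, SE 0.63; 0.00344). For all 7 genes every TP2 treated tumor lay below every TP1 treated tumor, as did 13.4% of all genes.

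The lectin genes and Csf3r fell as well. Clec4d measured 4.42, 2.3, 2.31 and 2.57 CPM in TP2 treated tumors (log2FC -3.52, SE 0.6; edgeR adjusted p = 0.00353), and Clec4e 6, 2.04, 3.3 and 4.54 CPM (-2.77, SE 0.65; 0.0131). Csf3r fell to 16.8, 14.8, 20.6 and 18.7 CPM (-1.37, SE 0.39; 0.0264), which lay within the range of the TP2 controls. Without TP1 treated replicate 3 the fall of Csf3r was -0.62 (edgeR adjusted p = 0.198) and that of Clec4e was -2.37 (edgeR adjusted p = 0.0541). Without TP1 treated replicate 1 both calls were also lost (edgeR adjusted p = 0.0611 and 0.0602), and without TP2 treated replicate 4 that of Csf3r (edgeR adjusted p = 0.0583).

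The granule and chemokine genes fell in the same comparison. Of the 4 tested secondary and tertiary granule genes 3 fell (Lcn2 -3.52, Mmp8 -3.48 and Mmp9 -3.22 on the log2 scale), and of the 8 tested mature neutrophil genes 5 fell (Il1r2 -2.76, Fpr1 -2.42, Fpr2 -1.68 and Hdc -1.41 the furthest). Of 7 immunosuppressive genes 3 fell (Arg1 -4.27, Il1b -2.87 and Ptgs2 -2.19) and of 10 adaptor genes 3 fell (Clec4n -1.91, Fcer1g -1.2 and Tyrobp -1.07). Of the monocyte markers 1 of 6 fell (Itgam, -1.96) and of the macrophage markers 1 of 8 (Cd68, -1.88), with list medians of -0.14 and -0.23. Epithelial tumor, adipocyte, blood and pancreas markers gave 0 calls.

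Against the vehicle controls of the same day, 4 of the 7 members were lower at TP2. S100a8, S100a9, Cxcr2 and Trem1 were called lower in treated tumors, beside 9.61% of all genes, and Csf3r, Clec4d and Clec4e were not called. Whether the genes differ from each other in this was not tested. S100a8 measured 2.23, 6.45 and 2.68 CPM in TP2 controls (log2FC -3.16, SE 0.66; edgeR adjusted p = 0.000989), and S100a9 2.82, 7.91 and 1.69 CPM (-2.85, SE 0.61; 0.00113). Trem1 measured 5.28, 12.8 and 3.5 CPM in these controls (-2.44, SE 0.52; 0.00116), and Cxcr2 1.94, 6.38 and 1.4 CPM (-1.97, SE 0.62; 0.0131). For these 4 genes every TP2 treated tumor lay below every TP2 control tumor, as did 25.4% of all genes. Csf3r, at 16, 23.6 and 11.4 CPM in controls, differed by 0.04 (SE 0.39; edgeR adjusted p = 0.933). Clec4d was at 4, 13 and 1.24 CPM (-1.09, SE 0.58; edgeR adjusted p = 0.12) and Clec4e at 3.9, 12.4 and 0.948 CPM (-0.56, SE 0.65; edgeR adjusted p = 0.472).

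TP2 control replicate 2 was the highest control for all 7 genes. Without it the fall was -2.51 for S100a8, -1.97 for S100a9 and -1.71 for Trem1, all still called. The fall of Cxcr2 was then -1 (edgeR adjusted p = 0.18), and the difference of Clec4d turned positive (0.13). Without control replicate 3, in contrast, Clec4d was called lower (-1.56; edgeR adjusted p = 0.0177), as it was with the mean log2 level of the pancreas genes as a covariate (-1.7; edgeR adjusted p = 0.0198). Cxcr2 also missed the threshold with the 7SL RNA share as a covariate (edgeR adjusted p = 0.103), in limma-voom (adjusted p = 0.0899) and in the fit over both models together (edgeR adjusted p = 0.0512). Squamous epithelial markers were lower in the same comparison, 2 of 2 tested (Sprr1a -5.97 and Krt14 -2.33). Both genes also passed the filter in the cultured lines, which held at most 4 counts of S100a8 and 0 of S100a9. They therefore do not single out squamous epithelium, and their part in the members' differences was not tested.

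Of 6 monocyte markers 3 rose in TP2 treated against TP2 control tumors (Ccr2 1.63, Ly6c2 1.42 and Plac8 1.17 on the log2 scale) and 1 fell (Itgam -1.06). Macrophage markers gave 1 rise of 8 (Mrc1, 1.18), T and B cell markers 6 of 6 and adipocyte markers 4 of 5, while 4 of 5 epithelial tumor markers, 8 of 8 pancreas acinar markers and 3 of 5 blood markers fell. Epithelial tumor markers summed to 1490 to 2050 CPM in TP2 controls and 347 to 659 CPM in TP2 treated tumors, and 7SL RNA took 2.91% to 14.1% and 9.38% to 26.5% of counts. Beyond the covariate fits given above for 7SL RNA and the pancreas genes, their part in the members' differences was not tested. Among the 4 tested granule genes Lcn2 (-3) fell, and among the 8 tested mature neutrophil genes Il1r2 (-2) and Hdc (-1.04) fell. Arg1 (-3.77), Nos2 (-3.19), Ptgs2 (-3.19) and Il1b (-1.45) fell among the immunosuppressive genes, of which 1, Cd84, rose. Of the adaptors Card9 (1.54) and Syk (1.45) rose.

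At TP3, 21 days after the last dose, none of the 7 genes was called against TP2 treated tumors, beside 7.87% of all genes. S100a8 measured 0.433, 0.399, 0.68 and 0.635 CPM and S100a9 0.252, 0.2, 0.324 and 0.635 CPM (log2FC 0.35 and -0.67). Trem1 measured 0.613, 0.765, 0.777 and 0.0907 CPM (-1.24, SE 0.54; edgeR adjusted p = 0.0838) and Cxcr2 0.397, 0.399, 0.841 and 0.635 CPM (-0.53). The lectin genes leaned the other way: Clec4d measured 5.77, 5.92, 7.44 and 7.92 CPM (1.23, SE 0.55; edgeR adjusted p = 0.0901) and Clec4e 5.73, 2.83, 5.53 and 9.77 CPM (0.6). All 4 Clec4d values lay above those of TP2 treated tumors, as for 14.6% of all genes, and all 4 Trem1 and Csf3r values (Csf3r log2FC -0.46) lay below them, as for 14.5%. DESeq2 called both Clec4d (1.24; DESeq2 adjusted p = 0.0471) and Trem1 (-1.24; DESeq2 adjusted p = 0.0411).

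Compared with TP2 controls, TP3 treated tumors were lower in the same 4 genes, beside 10.2% of all genes called lower. The log2FC was -3.68 for Trem1 (SE 0.55; edgeR adjusted p = 6.73e-05), -3.53 for S100a9 (SE 0.62; 0.000262), -2.8 for S100a8 (SE 0.63; 0.0018) and -2.5 for Cxcr2 (SE 0.63; 0.00375). Csf3r, at 12.9, 10.1, 13.5 and 14.4 CPM in TP3 tumors, differed by -0.42 (edgeR adjusted p = 0.394), Clec4d by 0.15 and Clec4e by 0.04. This comparison shares its controls with the TP2 one. Without TP2 control replicate 2, Cxcr2 was no longer called (-1.53; edgeR adjusted p = 0.0541). In the same comparison the mature neutrophil list split: G0s2 (3.02), Fpr1 (1.55) and Fpr2 (1.53) rose, and Il1r2 (-2.64) and Hdc fell. Of the granule genes Lcn2 (-4.21) and Mmp8 (-2.1) fell and Mmp9 (1.83) rose. Retnlg had 13, 8 and 10 counts in TP2 controls, 3, 1, 0 and 7 in TP2 treated tumors and 1 count in all in TP3 treated tumors.

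The ratio of lectin to calprotectin transcripts differed along the 60577 series. The 2 ratios given were chosen after the values were seen and carry no test. They rest on few calprotectin reads after TP1. S100a8 had 3 to 29 counts in TP2 treated and 12 to 21 in TP3 treated 60577 tumors. S100a9 had 9 to 23 and 6 to 21 counts in these groups. The log2 ratio of Clec4d to S100a8, each per kilobase, was -1.28 to -0.03 in TP1 controls and 0.44 to 0.82 in TP1 treated tumors. It was -2.31 to -0.2 in TP2 controls, 0.86 to 2.56 in TP2 treated tumors and 2.22 to 2.63 in TP3 treated tumors. Treated and control values of this ratio did not overlap at either time. The log2 ratio of Clec4e to S100a9 was -3.2 to -1.86 in TP1 controls and -2.25 to -1.62 in TP1 treated tumors, which overlapped. It was -4.07 to -2.6 in TP2 controls, -0.93 to -0.18 in TP2 treated tumors and 0.47 to 1.16 in TP3 treated tumors, with no overlap between treated and control tumors at TP2. In HGS2 tumors the group medians of the Clec4d to S100a8 ratio were -0.64 and 0.05 at TP1 (control, treated), -0.76 and -0.12 at TP2 and -0.23 at TP3. Those of the Clec4e to S100a9 ratio were -2.73 and -3.12 at TP1, -3.2 and -2 at TP2 and -4.6 at TP3. The log2 ratio of S100a9 to S100a8 had a median of 0.45 and a range of -0.62 to 2.36 over the 33 tumors. In 60577 TP2 treated tumors alone it ran from 0.08 to 2.36.

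**Figure D3:**
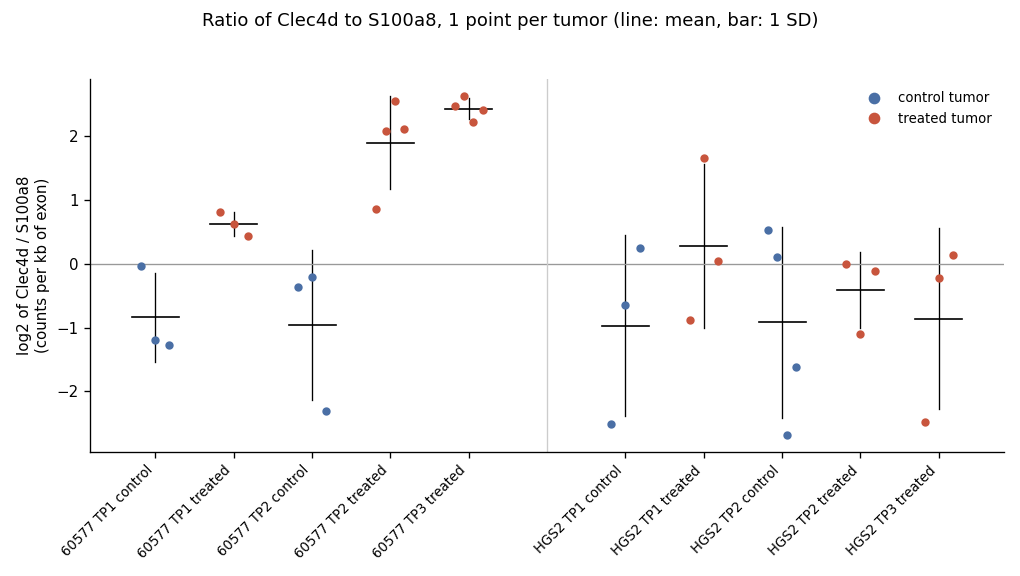
Log2 ratio of Clec4d to S100a8, each as counts per kilobase of exon (y axis), in every tumor by group (x axis), with the mean and 1 SD. In 60577 tumors the group medians go from -1.2 in TP1 controls to 2.45 in TP3 treated tumors, and the HGS2 medians lie between -0.76 and 0.05.

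Ligand genes of these receptors changed in the same directions in the 60577 model. Of 8 genes for ligands of CSF3R and CXCR2 and related factors, Csf3, Csf2, Ppbp and Cxcl15 were too low to test, with Csf3 at most 0.864 CPM. Cxcl2 measured 0.695, 1.58 and 1.37 CPM in TP1 controls and 24.5, 4.71 and 48.8 CPM in TP1 treated tumors (log2FC 4.43, SE 1.2; edgeR adjusted p = 0.0108). Cxcl3 measured 0.243, 0.513 and 0.261 CPM and then 9.28, 2.13 and 8.47 CPM (4.3, SE 1.09; edgeR adjusted p = 0.00725). Cxcl1 measured 9.93, 10.8 and 12.4 CPM and then 22.1, 17.2 and 39.7 CPM (1.26, SE 0.45; edgeR adjusted p = 0.0416). These 3 were called higher, and Cxcl5, at 6.84, 5.52 and 7.22 CPM and then 12.6, 4.89 and 26.5 CPM, was not (1.18, SE 0.7; edgeR adjusted p = 0.215). As for the members, treated replicate 3 was the highest tumor for Cxcl1, Cxcl2 and Cxcl5.

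At TP2 all 4 ligand genes were lower in treated tumors than at TP1. The falls were -4.44 for Cxcl2, -3.08 for Cxcl3, -3.05 for Cxcl5 and -2.46 for Cxcl1. Against TP2 controls, Cxcl5 (-3.15; edgeR adjusted p = 0.0014), Cxcl2 (-3.14; 0.0176) and Cxcl1 (-2; 0.00109) fell and Cxcl3 was not called (-1.75; edgeR adjusted p = 0.105). TP2 control replicate 2, the control with the highest member levels, was also the control with the highest Cxcl1 (37.3 CPM), Cxcl2 (29.5 CPM) and Cxcl5 (35.9 CPM). Against TP2 controls, TP3 treated tumors were lower in all 4 (median log2FC -3.4). The cultured 60577 line itself held Cxcl1 at 13.6 and 9.37 CPM, near the level of the control tumors, but Cxcl2 at 0.137 and 0.135 CPM. Cxcl5 also passed the filter in the cultured lines, where HGS2 against 60577 gave a log2FC of 0.32 (SE 0.69), not called. The part of tumor cells in the ligand changes was not tested.

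**Figure D4:**
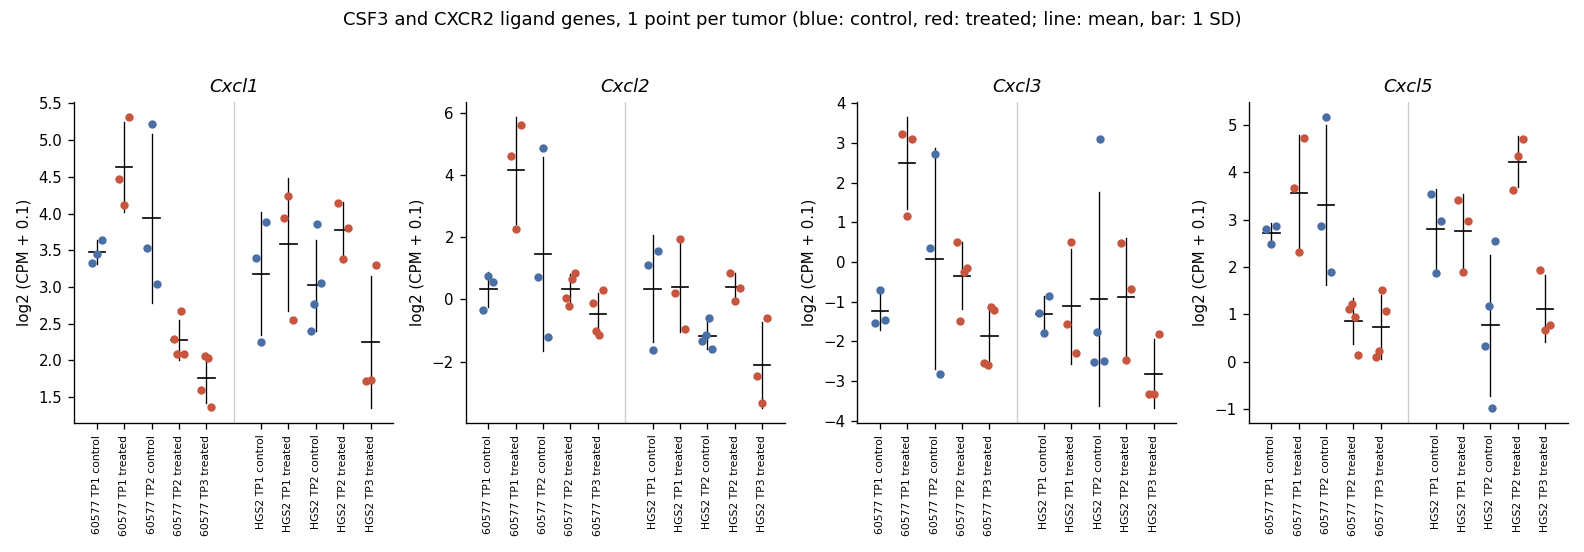
Level of the 4 tested ligand genes in every tumor (y axis, log2 of CPM plus 0.1; control blue, treated red; line mean, bar 1 SD), by group along the x axis. In 60577 tumors Cxcl2 is at 4.71 to 48.8 CPM in TP1 treated tumors and at 0.767 to 1.69 CPM in TP2 treated tumors.

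Between the vehicle-treated groups of the 60577 model, TP2 against TP1, 0 genes were called by edgeR and by limma-voom, with 9.24% of genes below an unadjusted p of 0.05, and 70 by DESeq2. All 7 members had positive values (median log2FC 1.19), of which Clec4d had the largest (1.62, SE 0.65; edgeR adjusted p = 0.479). Without TP2 control replicate 2 the value of Clec4d was 0.4.

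In HGS2 tumors none of the 7 genes was called in any of 6 comparisons, and neither was any other gene by edgeR or limma-voom (0% of 16241 genes). At TP1, S100a8 measured 6.22, 1.72 and 1.65 CPM in controls and 3.63, 1.44 and 1.58 CPM in treated tumors (log2FC -0.48, SE 0.87; edgeR adjusted p = 0.999). S100a9 measured 5.25, 1.14 and 1.1 CPM and then 3.22, 1.68 and 1.79 CPM (-0.12, SE 0.86). Groups overlapped for both genes, and replicate 1 was the highest tumor of each group. Clec4d measured 2.49, 2.54 and 4.56 CPM and then 4.55, 10.6 and 3.79 CPM (1, SE 0.68), and Clec4e 4.63, 1.65 and 5.06 CPM and then 3.52, 5.34 and 1.86 CPM (-0.05, SE 0.65). Csf3r measured 32.2, 19.1 and 16.5 CPM and then 20.6, 35.8 and 36.8 CPM (0.49, SE 0.35). Cxcr2 (0.21, SE 0.98) and Trem1 (0.81, SE 1.03) overlapped as well. By unadjusted p, 413 genes (2.54%) passed 0.05, and DESeq2 called 1 gene.

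At TP2 the HGS2 values leaned upward for 5 of the 7 genes. Csf3r measured 18.6, 9.22, 21.6 and 14.6 CPM in controls and 32.6, 43.7 and 43.4 CPM in treated tumors, with no overlap, as for 6.39% of all genes (log2FC 1.32, SE 0.32; unadjusted p = 0.00116, edgeR adjusted p = 0.588). Clec4e measured 0.782, 1.24, 3.79 and 2.16 CPM and then 8.01, 2.75 and 7.5 CPM (1.62, SE 0.61; edgeR adjusted p = 0.609). Cxcr2 measured 0.186, 0.388, 3.55 and 1.25 CPM and then 4.28, 3.35 and 4.68 CPM (1.63, SE 0.92; edgeR adjusted p = 0.676). Control replicate 3 was the highest control for all 7 genes and lay within the treated range for Clec4e and Cxcr2. Clec4d (1.45, SE 0.63; edgeR adjusted p = 0.636) and Trem1 (1.29, SE 0.95; edgeR adjusted p = 0.739) leaned the same way. S100a8, at 0.559, 0.775, 9.8 and 2.39 CPM and then 3.8, 1.55 and 3.94 CPM, did not (-0.1, SE 0.81), nor did S100a9 (-0.2, SE 0.8). By unadjusted p, 7.59% of genes passed 0.05, and DESeq2 called 8 genes.

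At TP3 the HGS2 treated tumors had lower values than at TP2. Csf3r measured 11.9, 7.18 and 15 CPM in replicates 2 to 4 (log2FC -1.81, SE 0.36; unadjusted p = 0.00019, edgeR adjusted p = 0.411), and Clec4e 0.704, 0.416 and 1.6 CPM (-2.74, SE 0.7; unadjusted p = 0.0017, edgeR adjusted p = 0.411). For 6 of the 7 genes TP3 tumors lay below all TP2 treated tumors, as did 9.03% of all genes. DESeq2 called Csf3r (-1.81; DESeq2 adjusted p = 0.00273) and Clec4e (-2.75; DESeq2 adjusted p = 0.0202), among 105 genes. Macrophage markers, which include cells that express Csf3r and Clec4e, had a list median of -0.67 in this comparison and monocyte markers one of -1.51, with 0 called in both lists, and their part was not tested. By unadjusted p, 10.4% of genes passed 0.05 here. Against TP2 controls the 7 values lay between -1.31 and -0.02 (2.5% of genes at an unadjusted p below 0.05, 5 genes called by DESeq2). TP2 treated against TP1 treated HGS2 tumors gave values from -0.02 to 0.77 (0.936%, 1 gene), and TP2 against TP1 controls values from -0.9 to 0.4 (3.5%, 7 genes).

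The 2 models were compared directly by testing the difference between their treatment responses. At TP1, 0 of 7 members were called, beside 1.45% of all genes. The HGS2 response minus the 60577 response was -3.57 for Clec4e (SE 1.03; edgeR adjusted p = 0.0644), -3.06 for Clec4d (SE 0.97; edgeR adjusted p = 0.0875), -3.02 for S100a8 (SE 1.16; edgeR adjusted p = 0.156) and -2.87 for S100a9 (SE 1.11; edgeR adjusted p = 0.16). Csf3r (-1.51), Cxcr2 (-2.18) and Trem1 (-1.17) were smaller in size. DESeq2 called Clec4e and Clec4d (DESeq2 adjusted p = 0.0123 and 0.027). Clec4e was also called without HGS2 TP1 control replicate 2 (-3.93; edgeR adjusted p = 0.0315) or without 60577 TP1 treated replicate 2 (-3.97; edgeR adjusted p = 0.0466). Of the listed genes, Fpr2 (-3.27; edgeR adjusted p = 0.0376), Pdgfra (-2.25; 0.00448), Cd84 (-1.52; 0.0403) and Trem2 (-1.42; 0.0361) were called lower, and no other was called.

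At TP2 the difference had the opposite sign for every member. Trem1 (3.69, SE 1.13; edgeR adjusted p = 0.039) and Cxcr2 (3.57, SE 1.14; edgeR adjusted p = 0.0457) were called, 2 of 7 beside 3.68% of all genes called higher. The others had values of 3.04 for S100a8 (edgeR adjusted p = 0.07), 2.62 for S100a9 (0.0976), 2.52 for Clec4d (0.065), 2.15 for Clec4e (0.128) and 1.26 for Csf3r (0.122). These 2 calls sat close to the threshold: neither was made with the replicate block (edgeR adjusted p = 0.0895 for Cxcr2 and 0.0967 for Trem1). Neither was called when any of these tumors was left out: HGS2 TP2 control replicates 1, 2 and 4, HGS2 TP2 treated replicates 1 and 3, 60577 TP2 control replicate 2 and 60577 TP2 treated replicates 3 and 4. Without HGS2 TP2 control replicate 3, the number of members called was 5. In the same comparison the ligand genes Cxcl5 (6.16), Cxcl2 (4.91) and Cxcl1 (2.67) were called higher, and Cxcl3 (-0.04) was not called. Of the granule and mature neutrophil lists, Lcn2 (4.42), Il1r2 (3.5) and Hdc (1.97) were called higher. The other tested genes of these lists were not called, with values from -1.13 (G0s2) to 4.27 (Slfn4). Also called higher were 4 immunosuppressive genes: Arg1 (5.01), Nos2 (4.72), Ptgs2 (3.53) and Il1b (3.32). The squamous marker Sprr1a was called higher too (6.84; edgeR adjusted p = 0.00649), 1 of 2 squamous markers tested, and its part in the members' differences was not tested. Of 6 T and B cell markers 1 was called lower (Cd79a, -5.43). Monocyte, macrophage and adaptor genes gave 0 calls there.

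**Figure D5:**
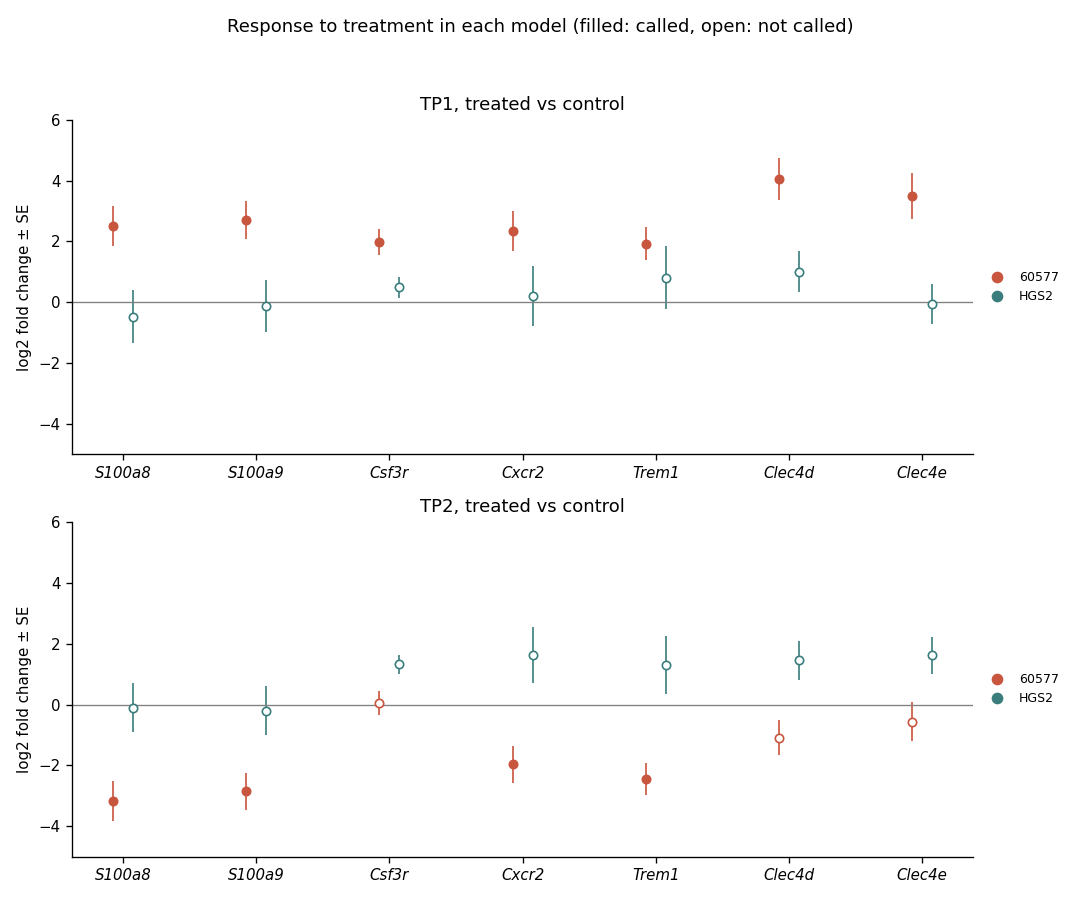
Treatment response of each of the 7 tested genes in 60577 and HGS2 tumors at TP1 and TP2 (y axis, log2 fold change of treated against control with its standard error, filled points called and open points not called). At TP1 the 60577 values run from 1.93 to 4.05 and the HGS2 values from -0.48 to 1, and at TP2 the 60577 values run from -3.16 to 0.04 and the HGS2 values from -0.2 to 1.62.

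Vehicle-treated tumors of the models were also compared, TP1 and TP2 controls together. There, 1 of 7 members was called, beside 22% of all genes. Trem1 was lower in HGS2, at 0.15 to 4.7 CPM in 7 tumors with a median of 1.05 CPM, than in 60577, at 3.09 to 12.8 CPM in 6 tumors with a median of 5.35 CPM (log2FC -1.76, SE 0.59; edgeR adjusted p = 0.015), and the call was lost without 60577 TP2 control replicate 2 (-1.41; edgeR adjusted p = 0.0586). The other 6 genes had values between -0.56 and 0.43. Markers of macrophages (6 of 8 higher), monocytes (4 of 6 higher) and eosinophils, mast cells and basophils (4 of 5 higher) were among the genes called higher in HGS2 controls, as were 8 of 8 pancreas acinar markers (list median log2FC 10.76). Of the neutrophil lists, Mmp9 (3.78) and Fpr2 (1.24) were also called higher there. So were the adaptor and partner genes Fcer1g (2.76), Ager (1.88) and Tyrobp (1.4), the immunosuppressive gene Cybb (1.39) and 4 of 6 fibroblast markers. None of the adaptor genes or fibroblast markers was called lower. Lower in HGS2 controls, like Trem1, were 4 of 5 epithelial tumor markers (median -2.92) and Hdc (-3.43), Cxcl2 (-2.19), Arg1 (-1.55), Lcn2 (-1.41) and Cxcl5 (-1.25). The part of these cells in the difference of Trem1 was not tested.

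The members varied together across tumors. Over the 17 60577 tumors, which differ in treatment and time, each gene's Pearson correlation with the mean of the other 6 was 0.93 for Cxcr2, 0.91 for S100a9, 0.865 for S100a8, 0.788 for Csf3r and 0.741 to 0.745 for Clec4d, Clec4e and Trem1. Over the 16 HGS2 tumors it ran from 0.501 for Clec4d to 0.824 for Clec4e. The genes outside the list whose level over the 60577 tumors was most like the members' mean were Srxn1 (r = 0.948), Lrp12 (0.934), Cxcl2 (0.933), Il1r2 (0.92), Msr1 (0.917), Slc39a14 (0.916), Ccl4 (0.911), Gdpd2 (0.906), Adgra2 (0.905) and Fblim1 (0.904). They include a chemokine ligand of CXCR2 (Cxcl2), the decoy receptor of interleukin-1 (Il1r2), a macrophage scavenger receptor (Msr1) and another chemokine (Ccl4). Over HGS2 tumors the same measure was 0.834 for Il1r2, 0.786 for Msr1 and 0.672 for Cxcl2, and -0.017 for Gdpd2.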

How the data were processed

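Bulk RNA from 34 omental tumors and 4 cell line libraries was depleted of ribosomal RNA and sequenced as strand-specific paired reads. The expected counts were deposited by the authors, unfiltered and not normalized, after trimming (Trim Galore), alignment (STAR) to GRCm38 and gene-level estimation (RSEM). Reads of FVB mice were thus aligned to a C57BL/6J reference. For testing these estimates were rounded. Tables held 0 columns of no sample.

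A gene was kept if 25% or more of the libraries reached 1 CPM (16241 of 55487 in the 33 tumors, 13742 in the cell lines). Library sizes were scaled by trimmed mean of M values (TMM), and edgeR 4.0.16 (quasi-likelihood test; R 4.3.3) was fitted to all groups of a model together, with no covariate. Differences between the models' responses were interaction terms in 1 fit over both models. Genes were called at an adjusted p below 0.05 (Benjamini-Hochberg over all genes tested) and a log2FC above 1 in size. Log2 CPM used a prior count of 2. Alternatives were DESeq2 1.42.0, limma-voom (limma 3.58.1), other filters, scalings and covariates, a replicate block, 1 fit over both models, and leaving out each tumor. The test was tested on simulated data.

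Replicate numbers are shared between groups. The correlation of the deviations of same-numbered tumors was above 0.1 in every pair for TP2 treated against TP2 control tumors. It was 0.114 to 0.144 in 60577 and 0.138 to 0.296 in HGS2. What the numbers mark is not stated, so these values do not establish pairs. The main tests were unpaired, and the replicate block was run as an alternative. In the other comparisons not every pair was above 0.1, though single pairs reached up to 0.366. Among 44 pairs of same-group libraries none were copies.

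The members and gene lists were chosen with earlier results of these data known. The tested members were described in every comparison of tumors, while some lists were given by counts alone or left out. From the other lists, at most 4 called genes in each direction were named, largest change first. The 10 genes most correlated with the members' mean were named too. Beyond that rule, genes below the filter or not called were named where a result turned on them, after their values were seen, and the 2 lectin to calprotectin ratios were chosen likewise. Promoter windows came from RefSeq (GRCm38.p6), and coordinates from GENCODE for GRCm38.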

Additional observations from a re-analysis of the deposited data

Results flagged for a closer look

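Within groups of 4 tumors, a sample was picked out when its gap to the nearest other tumor exceeded Dixon's 95% critical share of the group's range. Of 28 pairs of gene and group examined, 5 (17.9%) had such a tumor. Chance alone gives about 1 in 20 per pair. The genes vary together in the same groups, so the pairs are not independent and the 2 shares cannot be compared strictly. In HGS2 TP3 treated replicate 1, the library left out of the tests, the log2 CPM was -3.83 for S100a8 and -3.83 for Trem1, both from 0 counts, against 0.39 to 0.63 for S100a8 in the other 3 tumors. In 60577 TP3 treated replicate 4 Trem1 had a log2 CPM of -2.63 (0.0907 CPM), against -0.55 to -0.24 in the other 3. For Clec4d, 60577 TP2 treated replicate 1 was at 2.17 (4.42 CPM), above 1.25 to 1.4 in the others, and HGS2 TP2 control replicate 3 was at 1.84 (3.51 CPM), above 0.89 to 1.01.

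The response to treatment at TP2 differed between the models for Cxcr2 (HGS2 minus 60577, log2 difference 3.57) and Trem1 (3.69), by the test of the difference itself. Both genes fell in 60577 tumors (log2FC -1.97 and -2.44) and had values of 1.63 and 1.29 in HGS2 tumors, which were not called. Both calls depended on the settings given below.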

How the results depend on the processing

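Over the 105 pairs of member and comparison, 2009 alternative settings were run: 48 ended a call, 28 made one and 0 turned the direction of a called value, while 104 gave the other sign where neither was called. The number of members called moved by over 1.5 times in these comparisons. For TP3 against TP2 treated 60577 tumors (0 called), DESeq2 called 2, the pancreas RNA covariate 1 and a fit of the compared groups alone 1. For TP3 against TP2 treated HGS2 tumors (0), DESeq2 called 2. For the TP1 difference between models (0), DESeq2 called 2, the 7SL RNA covariate 1 and the pancreas covariate 2, and leaving out a tumor gave 0 to 1. For the TP2 difference between models (2), the count was 0 with no filter, 0 with the replicate block, 1 with the length and GC offset and the block, 0 with the 7SL covariate, 0 with all 17 HGS2 tumors and 4 with DESeq2, and leaving out a tumor gave 0 to 5. For HGS2 against 60577 controls (1), leaving out a tumor gave 0 to 1. The cause of these changes was not tested. Leaving out a tumor gave 5 to 7 called members at TP1 in 60577 (7), 3 to 5 at TP2 against controls (4), 5 to 7 for TP2 against TP1 treated (7) and 3 to 4 for TP3 treated against TP2 control tumors (4).

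With the replicate block, the comparisons of TP2 treated with TP2 control tumors gave 4 members in 60577 and 0 in HGS2, and no call in them changed. Elsewhere the block ended the call of Csf3r between TP2 and TP1 treated 60577 tumors (edgeR adjusted p = 0.0605). The cell lines' numbers were anticorrelated (-0.158), and a crossed pairing, added after seeing the data, called 2221 genes, the block 2237 and no block 2189, with 0 members in each. Depth limited Retnlg and Ly6g, whose values moved with the prior count.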
